A study of Homo sapiens with 6 samples.

Results

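The respiratory chain and the ATP synthase are built from subunits of the nuclear and the mitochondrial genome. A rule on gene symbols took 102 of the 60612 genes in the deposited table as members. Members were chosen by symbol among protein-coding genes: the NDUFA, NDUFB, NDUFC, NDUFS and NDUFV series of complex I without the NDUFAF assembly factors, SDHA to SDHD of complex II, the UQCR series of complex III, COX4I to COX8 of complex IV, the ATP5F1, ATP5M and ATP5P series of complex V, and the protein-coding genes of the mitochondrial genome, whose symbols start with MT-. Of these, 89 were nuclear and 13 mitochondrial. A further 180 rows, mostly pseudogenes of the same families, matched a symbol but were not protein-coding and were left out.

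U87 is a human glioblastoma cell line. Both groups received lentiviral shRNA with polybrene: the NC group a scrambled shRNA and the shPRMT6 group an shRNA against PRMT6, the arginine methyltransferase that places asymmetric dimethylation on histone H3. RNA from 3 NC and 3 shPRMT6 libraries was sequenced, and the methods call the replicates independent. The single comparison asks which transcripts differ when PRMT6 is reduced. Which PRMT6 shRNA was used is not given, and the numbering of its libraries was taken to mark replicates.

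Complex I passes electrons from NADH to ubiquinone and complex II does so from succinate; complex III hands them to cytochrome c and complex IV to oxygen. Complexes I, III and IV pump protons, and complex V uses the gradient to make ATP. Mitochondrial DNA codes for core subunits of every complex except II. It is transcribed as long precursors from both strands, which are cut into separate mRNAs, rRNAs and tRNAs, whereas nuclear subunits are transcribed gene by gene, translated in the cytosol and imported. The known nuclear regulators of these genes include NRF1, GABPA of the ETS family and YY1.

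The libraries held 56388161 to 75887696 counts. The targeted gene, PRMT6, was at 9.33, 7.97 and 7.19 CPM (counts divided by the TMM-scaled library size) in NC libraries 1, 2 and 3 and at 3.56, 4.58 and 5.24 CPM in shPRMT6 libraries 1, 2 and 3, a log2 fold change of -0.87 (SE 0.187, adjusted p = 0.0225, quasi-likelihood test of edgeR, Benjamini-Hochberg adjusted). The groups did not overlap. Of the markers that U87 cells are known to express, VIM and CD44 were abundant (means of 7984 and 567.5 CPM in NC) and SOX2 was near 0 (0.195 CPM). The 7 markers of that list summed to 11360 to 12420 CPM in NC and 10400 to 11190 CPM in shPRMT6, with TNC called lower and CHI3L1 higher. Among markers of other cells, the epithelial list summed to 13.3 to 19.7 CPM in NC and 3.595 to 9.68 CPM in shPRMT6, with 2 of 4 genes called lower. The endothelial list summed to 2.61 to 3.63 CPM in NC and 4.01 to 5.93 CPM in shPRMT6, with none of its tested genes called. The immune list summed to 147.5 to 256 CPM in NC and 143.7 to 315.7 CPM in shPRMT6, nearly all of it CD68, with CD3E at 0 in every library. The neuronal list summed to 25.8 to 29.1 and 22.9 to 27.1 CPM and the oligodendrocyte list to 0.715 to 3.14 and 2.63 to 3.27 CPM, with MOG at 0 in every library. For scale, 18.6% of all genes tested were called in either direction, 9.51% higher and 9.06% lower. The part of these markers in the results on the members was not tested.

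Some mitochondrial reading frames share bases, and these shared bases matter when counts are read gene by gene. The following stretches of the mitochondrial genome (chrM in GRCh38, plus strand, from GENCODE 29 transcripts) are shown because their capitals mark the bases that belong to both genes. The MT-ATP8 and MT-ATP6 frames overlap over 46 bases, chrM:8527-8572, and the printed stretch adds 14 bases on each side. The MT-ND4L and MT-ND4 frames overlap over 7 bases, chrM:10760-10766, printed with the same flanks.
MT-ATP8/MT-ATP6: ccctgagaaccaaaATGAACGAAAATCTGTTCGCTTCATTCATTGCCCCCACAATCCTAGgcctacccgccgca
MT-ND4L/MT-ND4: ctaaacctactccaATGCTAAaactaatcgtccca
Each capital run opens with the ATG start codon of the downstream frame and ends with the stop codon of the upstream one. Each pair is read from its own shared mRNA, so the counts within a pair are not independent of each other.

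All 13 mitochondrial mRNAs were tested, and 10 rose in shPRMT6 at an adjusted p under 0.05 while none fell. Over all 18106 genes tested, 18.6% were called in either direction, 9.51% higher and 9.06% lower. The remaining 3, MT-CO2, MT-CO3 and MT-ATP8, were also higher in each shPRMT6 library than in each NC library. All 13 thus had groups that did not overlap, against 20.3% of all genes in that direction. The mitochondrial mRNAs are cut from shared precursors, so the 13 are not independent observations. The median log2 fold change of the 13 was 0.45, with a range of 0.21 to 0.81, and that of all genes tested was -0.01. Of the 80 nuclear members tested, 3 were called higher and 1 lower (5.0% in all), and their median was 0.06.

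As a share of all counts, the 13 mitochondrial mRNAs made up 6.68%, 7.19% and 6.44% in NC libraries 1, 2 and 3 and 8.84%, 9.29% and 9.21% in shPRMT6 libraries 1, 2 and 3. The lowest shPRMT6 library lay above the highest NC library, and the ratio of the means was 1.35. The 89 nuclear members made up 0.857%, 0.720% and 0.782% of the counts in NC and 0.847%, 0.820% and 0.775% in shPRMT6, with a ratio of the means of 1.04. These nuclear shares overlapped between the groups, and NC library 1 was the highest and NC library 2 the lowest of all 6. For each count of a nuclear member there were 7.79, 9.99 and 8.24 mitochondrial mRNA counts in NC and 10.4, 11.3 and 11.9 in shPRMT6. The groups did not overlap in this ratio, although NC library 2 lay close to shPRMT6 library 1. In bulk RNA, a change in some cells and a smaller one in all cells cannot be told apart.

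**Figure D1:**
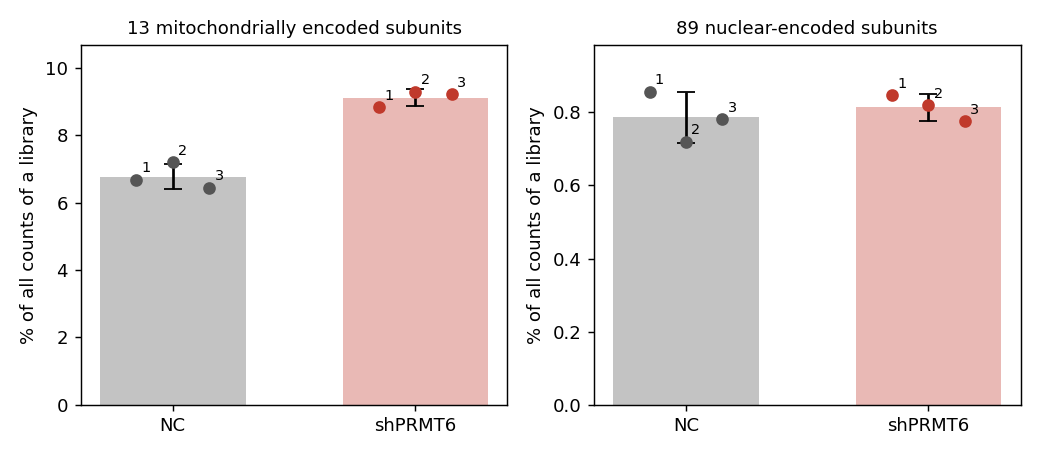
Percent of all counts of a library held by the mitochondrially encoded subunits (left) and the nuclear-encoded subunits (right), with both axes starting at 0. Points are libraries numbered by replicate, bars are means and error bars the SD of 3 libraries. The mitochondrial share was 6.44% to 7.19% in NC and 8.84% to 9.29% in shPRMT6, and the nuclear shares of the groups overlapped.

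The 7 mitochondrial subunits of complex I belong to its membrane arm, and all 7 were called higher, with a median log2 fold change of 0.61. MT-ND6, the only member read from the other strand, was at 1070, 1301 and 1217 CPM in the NC libraries and at 2116, 1987 and 2175 CPM in the shPRMT6 libraries. It had the largest difference of the 13, 0.81 (SE 0.081, adjusted p = 0.00187, quasi-likelihood test of edgeR, Benjamini-Hochberg adjusted). The use of strand in counting is not given, so reads of the plus and minus strands over MT-ND6 cannot be told apart. MT-ND3, a small subunit near the ubiquinone site, was at 694, 718 and 703 CPM in NC and at 1210, 1105 and 1121 CPM in shPRMT6. Its log2 fold change was 0.70 (SE 0.0531, adjusted p = 0.00088 in the same test). None of its 75-base stretches occurs in another annotated gene.

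The large proton-pumping subunits MT-ND2, MT-ND4 and MT-ND5 had values of different precision. MT-ND5 was at 3251, 3832 and 3158 CPM in NC and at 5152, 5311 and 5216 CPM in shPRMT6, a log2 fold change of 0.61 (SE 0.0779). MT-ND2 was at 5882, 6375 and 5597 CPM in NC and at 8888, 9414 and 9011 CPM in shPRMT6, also 0.61 (SE 0.0584). MT-ND4 was at 11670, 13480 and 11760 CPM in NC and at 16290, 16800 and 17300 CPM in shPRMT6, 0.45 (SE 0.0655). In each of these, NC library 2 was the highest of its group. MT-ND1, at the base of the membrane arm, was at 5515, 5670 and 5172 CPM in NC and at 8051, 8104 and 8124 CPM in shPRMT6, with a log2 fold change of 0.57 (SE 0.0465). MT-ND4L, which shares its mRNA with MT-ND4, had 0.40 (SE 0.07, adjusted p = 0.0115, quasi-likelihood test of edgeR, Benjamini-Hochberg adjusted).

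The mitochondrial genome codes for 6 subunits of the other complexes, of which 3 passed, with log2 fold changes of 0.21 to 0.45 for the 6. MT-CYB, the cytochrome b of complex III, was at 5385, 5330 and 5170 CPM in NC and at 6843, 6853 and 6877 CPM in shPRMT6. This was a log2 fold change of 0.37 (SE 0.0377, adjusted p = 0.0019, quasi-likelihood test of edgeR, Benjamini-Hochberg adjusted), with little spread in either group. In complex IV, MT-CO1, the catalytic subunit with the heme-copper site, was at 11230, 10740 and 9978 CPM in NC and at 13880, 15290 and 14440 CPM in shPRMT6, 0.45 (SE 0.0598, adjusted p = 0.00461 in the same test). MT-CO2, which receives electrons from cytochrome c, was at 8470, 9142 and 7814 CPM in NC and at 9478, 10420 and 9606 CPM in shPRMT6, with 0.21 (SE 0.0697, adjusted p = 0.0808 in the same test). MT-CO3, the third core subunit, was at 8773, 8241 and 7464 CPM in NC and at 9038, 10260 and 10000 CPM in shPRMT6, with 0.26 (SE 0.0762, adjusted p = 0.0604 in the same test). Neither MT-CO2 nor MT-CO3 passed the threshold.

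Complex V has 2 mitochondrial subunits, both in its membrane part. MT-ATP6, which lines the proton path, was at 2007, 2552 and 2082 CPM in NC and at 2715, 2831 and 2901 CPM in shPRMT6. Its log2 fold change of 0.35 (SE 0.0952, adjusted p = 0.0494, quasi-likelihood test of edgeR, Benjamini-Hochberg adjusted) passed by a narrow margin and was lost in 10 of 17 alternatives. MT-ATP8 was at 1575, 2245 and 1853 CPM in NC and at 2449, 2323 and 2586 CPM in shPRMT6, with 0.37 (SE 0.126, adjusted p = 0.0888 in the same test). In both genes NC library 2 was the highest of its group and closest to shPRMT6.

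Within the mitochondrial mRNAs, counts on the 7 MT-ND genes divided by counts on the 3 MT-CO genes were 1.05, 1.19 and 1.17 in NC and 1.36, 1.26 and 1.34 in shPRMT6. The highest NC library lay below the lowest shPRMT6 library. This ratio was formed after the values were seen and carries no test, and the difference between complexes within the mitochondrial genome was not tested.

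**Figure D2:**
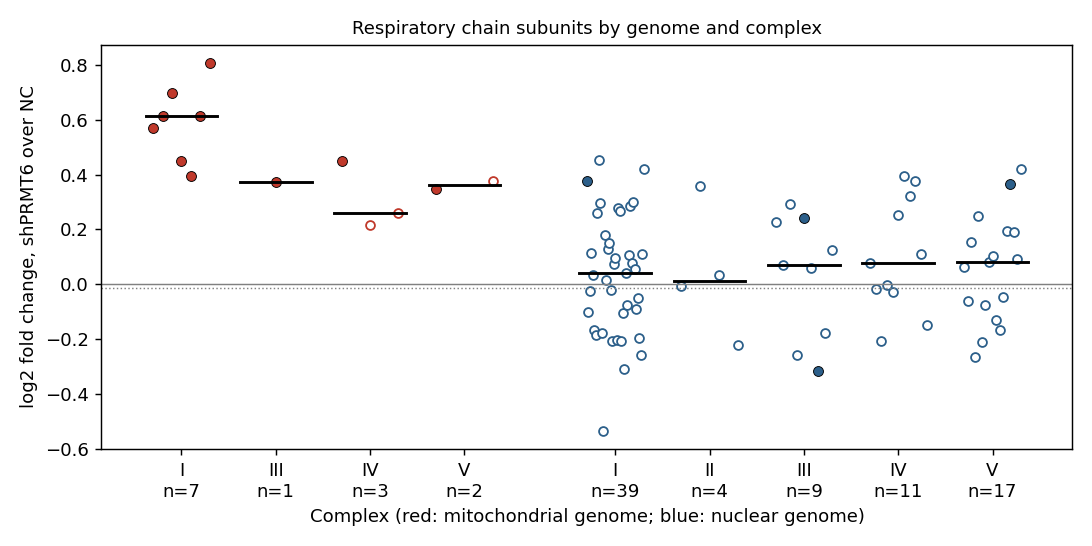
Log2 fold change of each tested subunit, shPRMT6 over NC, by complex, with mitochondrial genes in red on the left and nuclear genes in blue on the right. Filled points passed an adjusted p of 0.05, black bars are medians and the dotted line is the median of all genes tested. The medians of the mitochondrial groups run from 0.26 (complex IV) to 0.61 (complex I) and those of the nuclear groups from 0.01 (complex II) to 0.08 (complexes IV and V).

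Other products of the same precursors were examined next to the mRNAs. Of the 24 mitochondrial rRNAs and tRNAs, all were tested, 7 were called higher and none lower (29.2%). Over all genes tested, the share called was 18.6% in either direction and 9.51% higher. The large rRNA, MT-RNR2, was at 5750, 5467 and 5083 CPM in NC and at 7308, 7410 and 7207 CPM in shPRMT6, a log2 fold change of 0.43 (adjusted p = 0.0038, quasi-likelihood test of edgeR, Benjamini-Hochberg adjusted). The small rRNA, MT-RNR1, had 0.19 (adjusted p = 0.145 in the same test). MT-TE, the glutamate tRNA that lies beside MT-ND6 and is read from the same strand, was at 22.04, 23.6 and 23.8 CPM in NC and at 46.0, 43.1 and 45.5 CPM in shPRMT6, with 0.96 (adjusted p = 0.000955 in the same test). It had the largest difference among the called genes of the mitochondrial genome. As for MT-ND6, reads of the plus and minus strands over MT-TE cannot be told apart. MT-TG, MT-TR, MT-TH, MT-TS2 and MT-TL2 had values from -0.69 to -1.24 that did not pass, and all 5 were highest in NC library 2. How the libraries selected RNA is not given in the sources used here.

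**Figure D3:**
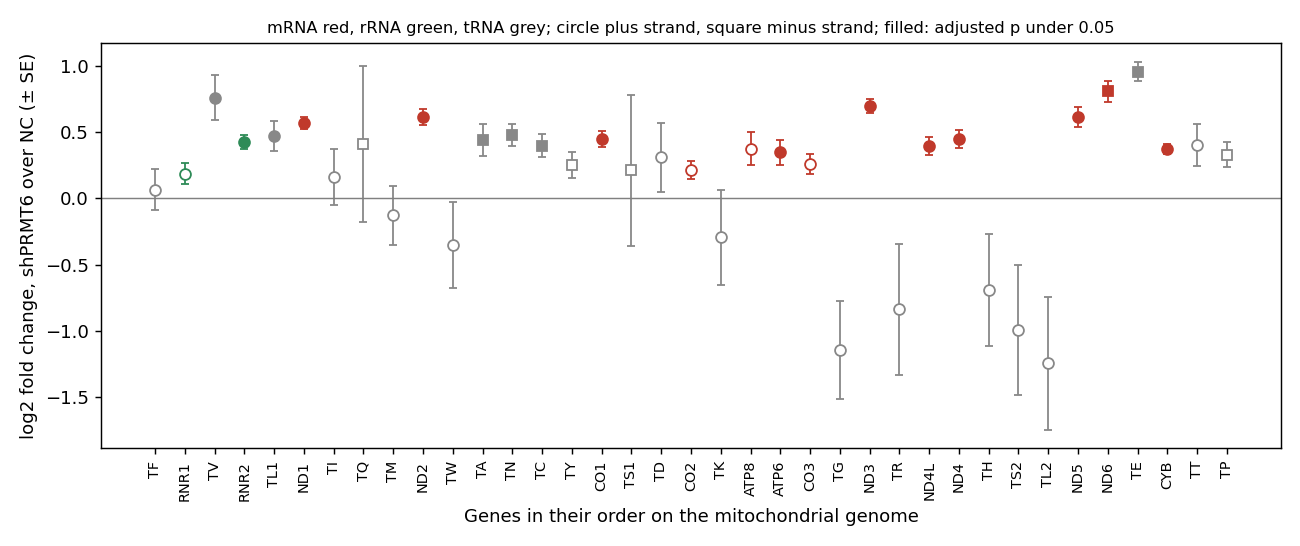
Log2 fold change with its SE for the genes of the mitochondrial genome in their order along it. Red marks mRNAs, green rRNAs and grey tRNAs, circles are plus-strand and squares minus-strand genes, and filled symbols passed an adjusted p of 0.05. All 13 mRNAs lie above 0, MT-ND6 and MT-TE (0.81 and 0.96) are highest, and 5 tRNAs between MT-CO3 and MT-ND5 lie at -0.69 or lower with wide errors.

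Copies of mitochondrial genes in the nuclear genome can take or lend reads. The share of a gene's 75-base stretches that also occur in another annotated transcript was 36.6% for MT-CO1, 34.4% for MT-ND2, 28.01% for MT-ATP6, 16.3% for MT-ND1, 14.6% for MT-CO3 and 10.5% for MT-CO2. It was 0 for MT-ND3, MT-ND4, MT-ND4L, MT-CYB and MT-ATP8, and over these 5 the median log2 fold change was 0.40. The matching pseudogenes took 0.207% to 0.233% of each NC library and 0.208% to 0.321% of each shPRMT6 library. Adding their counts to those of the mitochondrial mRNAs left the ratio of the means at 1.34.

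Of the 80 nuclear members tested, 76 did not pass. In all, 46 had a log2 fold change above 0 and 34 below. Groups did not overlap for 15 with shPRMT6 higher and 6 with shPRMT6 lower, against 20.3% and 19.8% of all genes tested. The log2 fold changes ran from -0.54 for NDUFA7 to 0.45 for NDUFA4L2, neither of which passed (adjusted p = 0.0591 and 0.207, quasi-likelihood test of edgeR, Benjamini-Hochberg adjusted). Of the 75-base stretches of NDUFA7, 75.3% occur in another annotated gene. NDUFA4L2 had the lowest NC level of the tested nuclear members, 0.491 FPKM. The medians were 0.04 for complex I (39 genes), 0.01 for complex II (4), 0.07 for complex III (9), 0.08 for complex IV (11) and 0.08 for complex V (17). Relative to the NC mean, the median nuclear member was at 0.14, -0.13 and -0.02 in NC libraries 1, 2 and 3 and at 0.12, 0.09 and -0.00 in shPRMT6 on the log2 scale. The NC libraries spanned a wider range than the shPRMT6 libraries. Without NC library 1 the nuclear median was 0.14, and without NC library 2 it was -0.02.

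Each of the 4 nuclear members that passed is described with its position in GRCh38 from GENCODE 29. UQCRH, the hinge protein of complex III (ENSG00000173660, chr1:46303631-46316776, plus strand), was at 268.5, 245.6 and 233.9 CPM in NC and at 203.0, 202.2 and 195.5 CPM in shPRMT6. It fell by 0.32 on the log2 scale (SE 0.0661, adjusted p = 0.0207, quasi-likelihood test of edgeR, Benjamini-Hochberg adjusted). UQCRHL, a second gene of nearly the same coding sequence, was at 10.5 to 11.7 CPM in NC and 9.77 to 10.1 CPM in shPRMT6, with -0.18 (adjusted p = 0.26 in the same test). Of the 75-base stretches of UQCRH, 19.6% occur in another annotated gene, so the split of reads between such copies is uncertain.

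UQCRC2, a core protein of complex III (ENSG00000140740, chr16:21952660-21983660, plus strand), was at 162.3, 148.1 and 147.9 CPM in NC and at 178.3, 180.7 and 182.3 CPM in shPRMT6. It rose by 0.24 (SE 0.0592, adjusted p = 0.0355, quasi-likelihood test of edgeR, Benjamini-Hochberg adjusted). None of its stretches are shared with another gene. UQCRC1, its partner core protein, was at 182.8, 152.7 and 181.0 CPM in NC and at 138.2, 150.1 and 143.2 CPM in shPRMT6, with -0.26 (adjusted p = 0.0827 in the same test). The groups did not overlap for either core protein, in opposite directions.

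NDUFA1, a small accessory subunit of complex I needed for its assembly (ENSG00000125356, chrX:119871487-119876662, plus strand), was at 83.6, 75.02 and 69.4 CPM in NC and at 102.8, 99.15 and 93.85 CPM in shPRMT6. It rose by 0.38 (SE 0.0848, adjusted p = 0.0267, quasi-likelihood test of edgeR, Benjamini-Hochberg adjusted). ATP5PB, subunit b of the peripheral stalk of complex V (ENSG00000116459, chr1:111448864-111462773, plus strand), was at 143.6, 140.5 and 129.2 CPM in NC and at 187.4, 161.7 and 183.6 CPM in shPRMT6. It rose by 0.37 (SE 0.0789, adjusted p = 0.0229 in the same test). NDUFA1 overlaps RNF113A and ATP5PB overlaps WDR77 on the opposite strand. The use of strand in counting is not given, so reads over the overlaps cannot be told apart. Stretches of 75 bases that also occur in another annotated gene made up 38.6% of NDUFA1 and 12.5% of ATP5PB. When libraries were left out in turn, UQCRH and ATP5PB were each called in 3 of 6 fits, and NDUFA1 and UQCRC2 each in 1 of 6. In those fits the log2 fold change was -0.36 to -0.26 for UQCRH and 0.32 to 0.43 for ATP5PB. It was 0.31 to 0.45 for NDUFA1 and 0.22 to 0.28 for UQCRC2. Over all genes, leaving out a library called 1755 to 3183 against 3362. Why the 4 calls were lost was not tested.

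The promoters of the nuclear members were searched for short motifs of known regulators in the 300 bases around each RefSeq start (GRCh38.p14, 250 before and 50 after). Of the 80 nuclear members tested, 65 had an entry, with 78 windows, since some genes had several. CCGGAAG, the core of ETS sites, was found on either strand in 28.2% of these windows and in 12.8% of 22199 protein-coding windows. CGCATGCG, from the NRF1 site, was found in 14.1% and 2.49%, and AAGATGGC, from the YY1 site, in 16.7% and 3.53%. The NRF1 and YY1 letters were shortened after the shares of longer forms had been seen, so these shares are a description of the windows only. Among all 35116 windows, the shares were 10.3%, 2.02% and 2.89%. Of the 4 called genes, UQCRH and NDUFA1 held 1 ETS match each, ATP5PB held 1 YY1 match and UQCRC2 held none of the 3. The windows of the 3 genes with a match are shown with the match in capitals, to let the place of the match be seen.
UQCRH, chr1:46303448-46303747, plus strand: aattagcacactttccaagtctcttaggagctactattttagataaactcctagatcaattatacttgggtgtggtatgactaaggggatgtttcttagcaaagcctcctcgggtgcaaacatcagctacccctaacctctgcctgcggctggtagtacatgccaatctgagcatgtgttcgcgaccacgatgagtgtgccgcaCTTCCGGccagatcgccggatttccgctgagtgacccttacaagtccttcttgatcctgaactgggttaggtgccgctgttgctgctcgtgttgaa
NDUFA1, chrX:119871582-119871881, plus strand: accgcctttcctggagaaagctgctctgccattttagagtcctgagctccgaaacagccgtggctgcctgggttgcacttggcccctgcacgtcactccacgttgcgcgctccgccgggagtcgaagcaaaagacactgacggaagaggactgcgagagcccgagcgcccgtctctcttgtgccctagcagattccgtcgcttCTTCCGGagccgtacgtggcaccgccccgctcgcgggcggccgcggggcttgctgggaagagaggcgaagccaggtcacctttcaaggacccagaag
ATP5PB, chr1:111449214-111449513, plus strand: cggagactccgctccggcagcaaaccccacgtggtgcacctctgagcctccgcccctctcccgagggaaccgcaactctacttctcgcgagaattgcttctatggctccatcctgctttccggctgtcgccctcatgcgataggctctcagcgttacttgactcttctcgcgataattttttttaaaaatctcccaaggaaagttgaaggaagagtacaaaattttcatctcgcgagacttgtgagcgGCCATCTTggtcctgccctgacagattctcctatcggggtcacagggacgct
In all 3 windows the match reads as the reverse complement of the motif. A match is not a binding site, and no binding was measured here.

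The core catalytic subunits of the nuclear genome given here did not pass, nor did COX4I1 of complex IV. In complex I, NDUFS1, which holds iron-sulfur clusters, had a log2 fold change of 0.11 (SE 0.0667) and NDUFV1, the NADH-binding subunit, had -0.26 (SE 0.193). In complex II, which has no mitochondrially encoded subunit, SDHA, the flavoprotein, was at 155.0, 141.5 and 149.1 CPM in NC and at 150.7, 151.5 and 141.3 CPM in shPRMT6, with -0.01 (SE 0.0617). SDHB, its iron-sulfur partner, was at 93.3, 78.2 and 80.7 CPM in NC and at 105.6, 119.7 and 97.6 CPM in shPRMT6, with 0.36 (SE 0.104, adjusted p = 0.0592 in the same test). The SDHA groups overlapped and the SDHB groups did not. UQCRFS1, the Rieske protein of complex III, had 0.06 (SE 0.0837) and COX4I1, the main regulatory subunit of complex IV, had 0.08 (SE 0.0731). ATP5F1A and ATP5F1B, which form the catalytic head of complex V, had 0.06 (SE 0.0638) and -0.06 (SE 0.151).

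Several subunits exist as paralogs with different tissue use, and these libraries held 1 side of most pairs. COX4I2, COX6A2, COX7A1 and COX7B2, mostly forms of lung, heart and muscle or testis, had no count in any library. COX8C and COX6B2, known from testis, reached at most 0.13 and 0.18 CPM, and 3 counts correspond to 0.0395 to 0.0532 CPM here. Their counterparts were present: COX4I1 at 245.6 to 282.6 CPM in NC, COX6A1 at 194.1 to 268.4, COX6B1 at 129.3 to 173.9, COX8A at 89.1 to 125.4 and COX7A2 at 40.9 to 61.8. None of these 5 passed the test in shPRMT6. NDUFA4, counted with complex I by its symbol but known as a complex IV subunit, was at 99.99 to 130.6 CPM in NC and its paralog NDUFA4L2, known to be induced in hypoxia, at 1.55 to 1.89 CPM. NDUFA4L2 was at 1.98 to 2.86 CPM in shPRMT6, above NC in each library but not past the threshold. The 3 genes that code for the same c subunit of the ATP synthase ring, ATP5MC1, ATP5MC2 and ATP5MC3, had log2 fold changes of -0.21, -0.08 and 0.08, and none passed.

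Some nuclear members varied more within a group than between groups. COX7A2L, a supercomplex factor, was at 120.7, 38.4 and 56.95 CPM in NC and at 137.0, 67.0 and 65.8 CPM in shPRMT6, so that library 1 was highest in both. COX7B was at 74.1, 66.8 and 113.9 CPM in NC and at 92.9, 162.5 and 75.5 CPM in shPRMT6. ATP5F1D, the delta subunit, was at 40.7, 15.9 and 31.9 CPM in NC and at 32.7, 30.8 and 10.1 CPM in shPRMT6. For these 3 genes the SE of the log2 fold change was 0.476, 0.326 and 0.502, so a difference of 0.45, the mitochondrial median, is of the order of the error. The readthrough gene NDUFC2-KCTD14 was at 2.01 CPM in NC library 2 and at 0.02 to 0.32 CPM elsewhere. In all, 9 nuclear members were too low to be tested: the 6 paralogs above, the readthrough genes NDUFC2-KCTD14 and ATP5MF-PTCD1, and ATP5MGL.

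Levels of different genes were compared per length with the deposited FPKM. The median mitochondrial member was at 4809 FPKM in NC and the median tested nuclear member at 27.45 FPKM. The mitochondrial genes ran from 1587 FPKM for MT-ND5 to 10430 FPKM for MT-CO2, and the nuclear genes from 0.491 FPKM for NDUFA4L2 to 276.9 FPKM for NDUFS5, an accessory subunit of complex I, so no nuclear member reached the lowest mitochondrial one. Among nuclear genes the median NC level was 17.6 FPKM in complex I, 13.7 in complex II, 32.2 in complex III, 45.3 in complex IV and 34.8 in complex V. The highest of each were NDUFS5, SDHB (30.4 FPKM), UQCRH (156.5), COX8A (190.3) and ATP5F1B (224.4), and the lowest NDUFA4L2, SDHC (9.89), UQCRHL (4.35), COX7A2L (10.8) and ATP5F1D (11.0). The deposited FPKM divides by 1 fixed length per gene that can exceed the mature mRNA, so nuclear levels depend on it. With CPM per kilobase of the principal transcript the NC medians were 5711 for mitochondrial and 59.7 for nuclear members. For MT-ND1 and MT-CYB, counts and FPKM imply lengths of 1131 and 1350 bases, against 956 and 1141 annotated. The measures thus differ in more than the choice of transcript, and the reason was not tested.

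**Figure D4:**
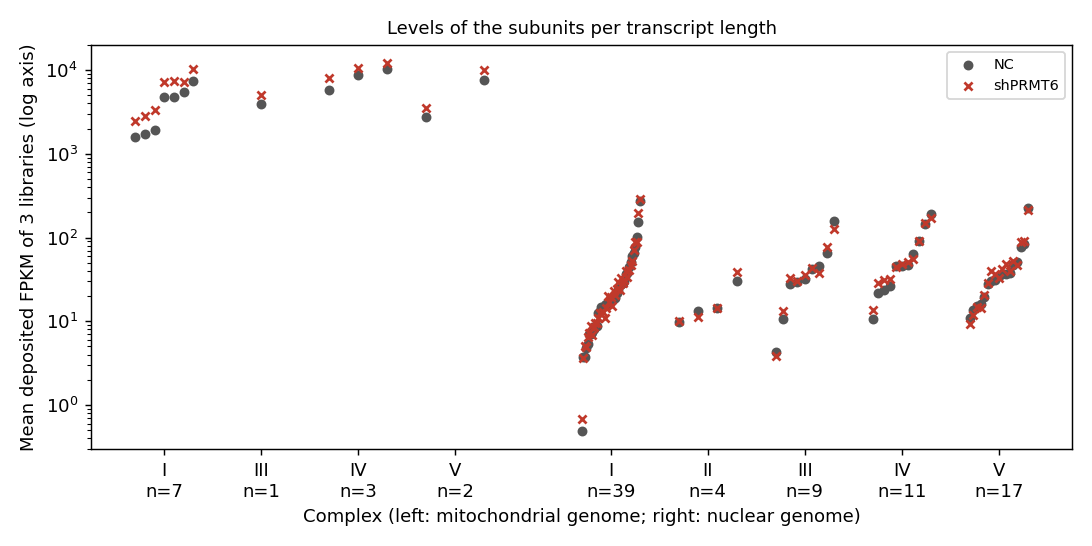
Mean deposited FPKM of each tested subunit in NC (grey circles) and shPRMT6 (red crosses) on a log axis, by complex, with mitochondrial genes on the left and nuclear genes on the right, sorted within each complex. The mitochondrial genes sit between 1587 and 10430 FPKM in NC, above the highest nuclear gene at 276.9 FPKM.

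The gene groups that serve the chain are given with the share called in either direction, which was 18.6% over all genes tested. Of 61 assembly factors, 3 were called higher and 5 lower (13.1%), among them SCO2, a copper chaperone of complex IV (1.18), SURF1, another complex IV factor (-0.52), and NDUFAF3, a complex I factor (-0.51). Of the 6 leave-one-out fits, each without 1 library, SCO2 was called in 0 and SURF1 and NDUFAF3 in 1 each. Of 23 electron carriers and feeders tested, 5 were called higher and 2 lower (30.4%). SQOR, which oxidizes sulfide and passes electrons to ubiquinone, rose by 0.90, ETFDH by 0.55 and CYCS, the cytochrome c between complexes III and IV, by 0.32, whereas CYC1, the cytochrome c1 of complex III, fell by 0.34 on the log2 scale. With GC content and transcript length corrected, CYC1 was at -0.22 and not called, and ETFDH was called in 4 of the 6 leave-one-out fits. CYC1 is a complex III subunit whose symbol lies outside the naming rule.

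The list of genes that maintain and express mitochondrial DNA had 4 higher and 2 lower of 40 (15%). PNPT1, which takes part in the turnover of mitochondrial RNA, was at a mean of 32.5 CPM in NC and 20.8 CPM in shPRMT6 and fell by 0.65 on the log2 scale (adjusted p = 0.00267, quasi-likelihood test of edgeR, Benjamini-Hochberg adjusted). Its partner helicase SUPV3L1 rose by 0.48 and FASTKD2, an RNA-binding factor of the mitochondrial granules, by 0.57. GFM1, POLG and TUFM had 0.29, 0.27 and -0.24, and with 1 library left out they were called in 1, 0 and 1 of 6 fits. Of 14 regulators of respiratory genes, NRF1 alone was called (7.14%), at -0.57 (adjusted p = 0.0488 in the same test), and it was not called in any of the 6 leave-one-out fits.

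Of 18 genes of the tricarboxylic acid cycle, which supplies NADH and succinate, 4 were called higher and 2 lower (33.3%). OGDH, a subunit of the oxoglutarate dehydrogenase complex, rose by 0.67, and IDH2 and FH fell by 0.36 and 0.32 on the log2 scale. OGDH was called in each of the 6 leave-one-out fits, IDH2 in 4 and FH in 1. Of 78 mitochondrial ribosomal proteins, which belong to the machine that translates the 13 mRNAs, 6 were called higher and 4 lower (12.8%). MRPL18 was at a mean of 74.5 CPM in NC and 33.6 CPM in shPRMT6, -1.15 on the log2 scale, the largest called difference of that list.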

How the data were processed

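RNA of 3 NC and 3 shPRMT6 libraries was compared, and groups were taken from the labels. The authors deposited unnormalized read counts for each gene, and FPKM values in which counts are divided by depth and by 1 fixed length per gene, with a gene without counts listed at 0.0001. The submitters' processing notes name HISAT2, HTSeq 0.13.5 and GRCh38 with no role or order. The annotation release, the use of strand and the RNA selection are not given in the sources used here. The labels name a Trizol extraction and the methods another kit.

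Symbols, gene types, positions and shared 75-base stretches came from GENCODE 29 on GRCh38, which held 58394 of 60612 identifiers. Counts were fitted in edgeR 4.0.16 (R 4.3.3) with TMM scaling, filterByExpr with the group and a quasi-likelihood test. Adjustment by Benjamini-Hochberg covered all 18106 genes left by the filter, and the threshold was an adjusted p of 0.05. The fit was tested on simulated data. CPM are TMM-scaled, and 3 libraries per group limit the precision. Each SE was derived from the test, as the absolute log2 fold change divided by the square root of its F statistic. It is therefore no separate estimate of spread. The floor of 3 counts covers counting error only. Replicates differed by more than counting error (chi-square per degree of freedom 48.2 to 78.4).

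The text names every mitochondrial member, nuclear members past the threshold, core catalytic subunits, isoform pairs and the highest and lowest FPKM of each complex, and up to 6 called genes of other lists. Values of 2 genes under this rule are not reported here. NDUFA7, the untested members, the promoter motifs and the MT-ND to MT-CO ratio were added after values were seen. Members and gene lists were chosen with earlier results of these data known. Alternatives used DESeq2 1.42.0, limma 3.58.1, other scalings and filters, a GC and length correction, a replicate block and leaving out each library.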

Additional observations from a re-analysis of the deposited data

How the results depend on the processing

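The mitochondrial median log2 fold change stayed between 0.40 and 0.52 and the nuclear one between -0.02 and 0.14 over the alternatives run, and no result changed direction among those with a called value. Mitochondrial calls numbered 8 to 12 in those fits except limma on log2(FPKM + 1) without a filter, which gave 3. Nuclear calls higher, 3 in the main setting, were 7 with DESeq2, 6 with the GC and length correction, 5 with at least 10 counts in every library, 9 with limma on filtered log2(FPKM + 0.1) and 9 on filtered log2(FPKM + 1), and 0 to 9 when a library was left out, with 0 without NC replicate 3, shPRMT6 replicate 1 or shPRMT6 replicate 3, and 9 without NC replicate 1. Nuclear calls lower, 1 in the main setting, were 2 with DESeq2, 2 and 2 with both filtered limma fits, and 0 to 6 when a library was left out, with 6 without NC replicate 2. Libraries of the same replicate number showed no sign of pairing (correlations 0.05, -0.04 and -0.04 over 9968 genes). This check cannot show whether the libraries were prepared in pairs, and the labels do not say. The fit with the replicate block gave 1 nuclear call higher, 0 lower and 9 mitochondrial calls. Over all genes the block called 1858 against 3362, and leaving out a library called 1755 to 3183. PRMT6 missed the threshold with the replicate block (-0.88, adjusted p = 0.0803) and in unfiltered limma on log2(FPKM + 1) (-0.47, adjusted p = 0.0578), and over the fits without 1 library its log2 fold change was -1.0 to -0.73 (quasi-likelihood test of edgeR, Benjamini-Hochberg adjusted, lost without NC replicate 1, shPRMT6 replicate 1 or shPRMT6 replicate 2). With CPM per kilobase of the principal transcript, added after the data were seen, the NC median levels were 5711 for mitochondrial and 59.7 for nuclear members. The causes of these changes were not tested.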

Other observations

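Of small RNAs that usually lack poly(A) tails, 5 were looked at, a choice made after values were seen. RN7SK was at 7.29, 2.44 and 8.93 CPM in NC libraries 1, 2 and 3 and at 9.45, 8.92 and 9.46 CPM in shPRMT6. RN7SL1 was at 25.8, 9.40 and 22.3 CPM in NC and at 21.4, 20.4 and 16.0 CPM in shPRMT6. RMRP, RPPH1 and RN7SL2 were also lowest in NC library 2, and none of the 5 passed the test (adjusted p 0.408 to 0.99, quasi-likelihood test of edgeR, Benjamini-Hochberg adjusted). NC library 2 was also the NC library with the highest mitochondrial mRNA share, 7.19%, and the lowest nuclear member share, 0.720%. The part of RNA selection in the differences between the groups was not tested.

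The nuclear copies of mitochondrial genes on chromosome 1 did not all move with the mitochondrial mRNAs. MTATP6P1 was at 1091 to 1309 CPM in NC and 1449 to 1481 CPM in shPRMT6, and rose by 0.31 (adjusted p = 0.0324, quasi-likelihood test of edgeR, Benjamini-Hochberg adjusted), a call kept in 9 of 17 alternatives and in 1 of 6 leave-one-out fits. With GC content and transcript length corrected it was not called. MTCO1P12 was at 546.8, 288.4 and 320.1 CPM in NC and at 761.1, 139.5 and 568.4 CPM in shPRMT6, so the groups overlapped. The origin of the reads on these copies was not tested.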
